A study of Mus musculus with 96 samples.

Results

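The miR-133 family was followed here across 4 cardiac cell types and 6 days after myocardial infarction in the mouse. Its members were the 3 mature miRNAs listed as mmu-miR-133a-3p, mmu-miR-133a-5p and mmu-miR-133b-3p (written without mmu below), chosen by name from the 1978 mature miRNAs of the tables, of which 1561 had a count in some library. Each of the 96 libraries held small RNA of 1 cell type at 1 day, with 4 libraries for each of the 24 combinations. The groups came from wild-type C57Bl/6J male mice aged 12 to 14 weeks. D1, D3, D7, D14 and D28 are days after acute myocardial infarction (AMI) by permanent ligation of the left coronary artery, and D0 was taken from control mice without surgery, so operation and infarction cannot be told apart. The cell types were cardiomyocytes (CMs, enriched by low-speed centrifugation), endothelial cells (ECs, bound to CD144 beads), hematopoietic cells (HCs, bound to CD45 beads) and fibroblasts (FBs, collected as the cells that adhered to uncoated dishes). RNA of 3 mice (fewer where a sample was missing) was pooled for a library, so a library is a pool and not an animal, and its spread leaves out the spread between mice within a pool. Per the methods, the cell types of a day came from the same animals, but which pools share animals is not given, so tests between cell types take as independent libraries that may share mice. RNA input and PCR cycles were set for each cell type (500 ng and 14 cycles for CMs, 50 ng and 16 for ECs, 150 ng and 15 for FBs and HCs). Per the methods, library preparation was also batched by cell type. A difference between cell types therefore cannot be told apart from these settings or from the preparation batch.

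MicroRNAs are short RNAs that guide Argonaute proteins to messenger RNAs, mainly through bases 2 to 8 of the miRNA, the seed. The miR-133 family is named together with miR-1, miR-206, miR-208 and miR-499 among the muscle miRNAs. It is transcribed with miR-1 in heart and skeletal muscle, under control of serum response factor and MEF2, and is known to restrain cardiomyocyte hypertrophy and proliferation, and miR-133b lies beside miR-206, a miRNA of skeletal muscle. Each hairpin is cut into a 5p and a 3p arm, and for miR-133a the 3p arm is the one that is loaded and the 5p arm is the minor strand.

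The sequences below show what the counting had to tell apart: the 2 arms of miR-133b, the miRNAs that lie beside the family in the genome, and the hairpin from which miR-133b is cut. They are from RefSeq on GRCm38.p6, 5′ to 3′, with the seed in capitals. The minor arms are printed because the arms of a hairpin were counted apart.
miR-133b-3p (chr1:20682834-20682855, plus strand): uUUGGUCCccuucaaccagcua
miR-133b-5p (chr1:20682797-20682818, plus strand): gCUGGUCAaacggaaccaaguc
miR-206-3p (chr1:20679055-20679076, plus strand): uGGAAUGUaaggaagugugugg
miR-1a-1-5p (chr2:180389057-180389079, plus strand): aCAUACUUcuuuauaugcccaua
The hairpin of mir-133b runs over chr1:20682769-20682887 on the plus strand, with the 5p and the 3p arm in capitals.
mir-133b hairpin: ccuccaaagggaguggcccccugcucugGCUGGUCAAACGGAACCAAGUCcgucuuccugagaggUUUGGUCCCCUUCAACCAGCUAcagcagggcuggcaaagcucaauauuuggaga

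The seed UUGGUCC of miR-133b-3p was held by miR-133b-3p and by no other of the 1679 listed miRNAs that had a sequence in the table, and the seed GGAAUGU of miR-206-3p was shared there with miR-6349 and miR-6382. The table does not hold miR-133a-3p or miR-1a-3p, so neither was looked up for these seeds. The Mir133b gene lies 3686 bases downstream of Mir206, and both overlap an exon of the lincRNA Gm28653 on the same strand. One of the miR-133a genes, Mir133a-2 (chr2:180398379-180398482), lies 9254 bases downstream of Mir1a-1 (chr2:180389048-180389124) on the plus strand. Both stand inside the long non-coding RNA gene Mir1a-1hg (chr2:180385604-180401802), which is the shared transcript of miR-1a and miR-133a at this locus.

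The counts of mature miRNAs summed to between 18286 and 65588543 per library, with medians of 13945010 in CMs and 3583270 in ECs. A level below is counts per 1000000 of these summed counts (CPM). Summed CPM of 4 cardiomyocyte miRNAs (miR-1a-3p, miR-208a-3p, miR-208b-3p and miR-499-5p) was 306328 to 708140 in CM libraries, 20095 to 160454 in EC, 25834 to 131412 in HC and 771 to 5796 in FB libraries, so these miRNAs were also counted in cell types they do not mark. Their part in the miR-133 counts of ECs, HCs and FBs was not tested. The endothelial, fibroblast and hematopoietic marker lists had their highest mean in the cell type they name. The authors removed 1 small RNA replicate each from ECs at D28, HCs at D0 and FBs at D0 as outliers. All 96 libraries were kept here, and the shallowest library of each of these 3 groups was left out as an alternative. These were replicate 1 of ECs at D28 (525651 counts), replicate 3 of HCs at D0 (18286) and replicate 2 of FBs at D0 (2217588). Some EC libraries were shallower than that FB library, such as replicate 3 of D28 (636084).

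In CMs the abundant arm, miR-133a-3p, had its lowest mean CPM at D0 and its highest at D14. The 4 D0 libraries of CMs held 903, 295, 186 and 182 CPM, a mean of 391 ± 345 (SD, n = 4). At D1 the levels were 442, 541, 3718 and 3005 CPM, and at D3 they were 1467, 1830, 5746 and 3972 CPM. At D1, 2 of the libraries stood within the D0 range and the other two above it, and at D3 all were above it. The D7 libraries held 5106, 7441, 5022 and 5411 CPM (5745 ± 1143) and the D14 libraries 6881, 5095, 7613 and 7894 CPM (6871 ± 1258). At D28 there were 1267, 3900, 5145 and 4473 CPM (3696 ± 1697). All D3 to D28 libraries lay above the highest D0 library on this scale, and 1 library at D28 was nearer to D0 than the rest. Markers of other cell types moved in the same CM libraries: from D0 to D14 the summed fibroblast markers went from 37 to 114 CPM to 1358 to 2188 CPM, the endothelial markers from 4423 to 9789 CPM to 19277 to 27651 CPM and the hematopoietic markers from 15 to 76 CPM to 151 to 182 CPM. Over the same days the cardiomyocyte markers went from 603197 to 708140 CPM to 306328 to 411683 CPM and the mural markers from 22682 to 36325 CPM to 15754 to 18619 CPM. The part of these shifts in the change of miR-133a-3p was not tested.

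**Figure D1:**
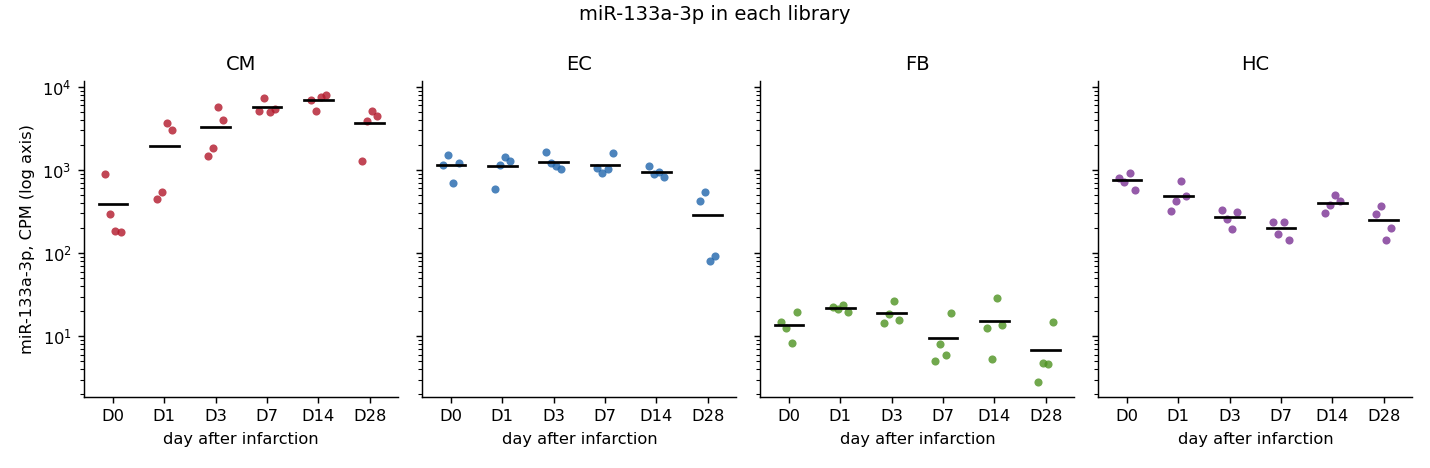
Level of miR-133a-3p in CPM (log axis) by day after infarction in the 4 cell types; each point is 1 library and each black line is a group mean. CM libraries climb from 182 to 903 CPM at D0 to 5095 to 7894 CPM at D14, HC libraries fall from 575 to 930 CPM at D0 to 142 to 240 CPM at D7, EC libraries are lowest at D28, and FB libraries stay at or under 28.8 CPM.

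CPM in CMs also moves with miR-1a-3p, which alone takes a large share of each CM library, so the changes were tested after scaling by the trimmed mean of M values (TMM), which assumes that most miRNAs do not change. The factors were 0.289 to 0.357 at D0 and up to 2.04 at D14. On that scale miR-133a-3p was higher than at D0 by 1.57 ± 0.47 (log2 fold change ± SE) at D7, 1.54 ± 0.47 at D14 and 1.39 ± 0.47 at D28 (edgeR quasi-likelihood test, adjusted p = 0.0051, 0.00602 and 0.0147). The differences of 0.79 ± 0.46 at D1 and 1.07 ± 0.46 at D3 did not pass the threshold of 0.05 (adjusted p = 0.207 and 0.0548). Without replicate 1 of D0, the highest of the D0 libraries, the D1 and D3 values were 1.55 and 1.74 and both passed. The minor arm miR-133a-5p, at 13.2, 4.74, 3.24 and 2.45 CPM at D0 and 141, 163, 146 and 127 CPM at D7, was higher by 1.67 ± 0.51, 2.34 ± 0.52, 2.13 ± 0.51 and 2.51 ± 0.52 from D3 to D28, past the threshold each time. For miR-133b-3p the log2 fold changes from D3 to D28 passed, with 1.16 ± 0.47, 1.67 ± 0.48, 1.60 ± 0.48 and 1.48 ± 0.48. Of 15 tests of a member against D0 in CMs, 11 passed, all of them higher. Over all 484 miRNAs tested in CMs, 13.6%, 31.8%, 38.8%, 38.0% and 29.5% were called higher on the 5 days in turn.

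The D0 and D7 libraries of CMs did not overlap on the TMM scale for any of the 3 members, while 31.4% of all miRNAs were higher without overlap at D7. At D14 and D28 the values of miR-133a-3p overlapped with D0 through replicate 1 of D0 alone. miR-133a-5p did not overlap at either day, and miR-133b-3p did not at D14, where 30.0% and 23.8% of all miRNAs were higher without overlap at D14 and D28. All 3 members differed between the 6 days (adjusted p = 0.0415 for miR-133a-3p, 0.00253 for miR-133a-5p and 0.0358 for miR-133b-3p), as did 73.8% of the miRNAs tested. The call for miR-133a-3p is near the threshold: leaving out any one of 11 libraries (D0 replicates 2, 3 and 4, or any library of D7 or D14) left only 1 of the 3 members past it. Scaled by library size alone, miR-133a-3p was higher by 2.30, 3.06, 3.88, 4.13 and 3.24 at D1, D3, D7, D14 and D28. That scaling moved the median of all miRNAs by 1.42, 2.37, 2.67, 2.99 and 1.99, with 59.3%, 76.4%, 80.2%, 83.1% and 69.4% of all miRNAs called higher. On either scale miR-133a-3p lay above the median at each day.

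miR-1a-3p shares a transcript with miR-133a at the Mir1a-1 locus. It fell in the same CM libraries on the log2 TMM scale at D1, D3, D7, D14 and D28. Its falls were 1.30, 2.33, 2.84, 3.51 and 2.01, all past the threshold. Scaled by library size alone its log2 fold changes were -0.21, -0.41, -0.60, -0.90 and -0.33, in the same direction, and the D1 value did not pass (adjusted p = 0.133). The hairpins mir-1a-1 and mir-1a-2 had nearly equal counts, such as 677338 and 680873 in CM D0 replicate 1. These counts therefore do not show which miR-1a locus the reads came from. miR-499-5p, which lies in the intron of a slow myosin gene, rose by 0.92, 0.96, 0.81, 0.70 and 1.27.

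**Figure D2:**
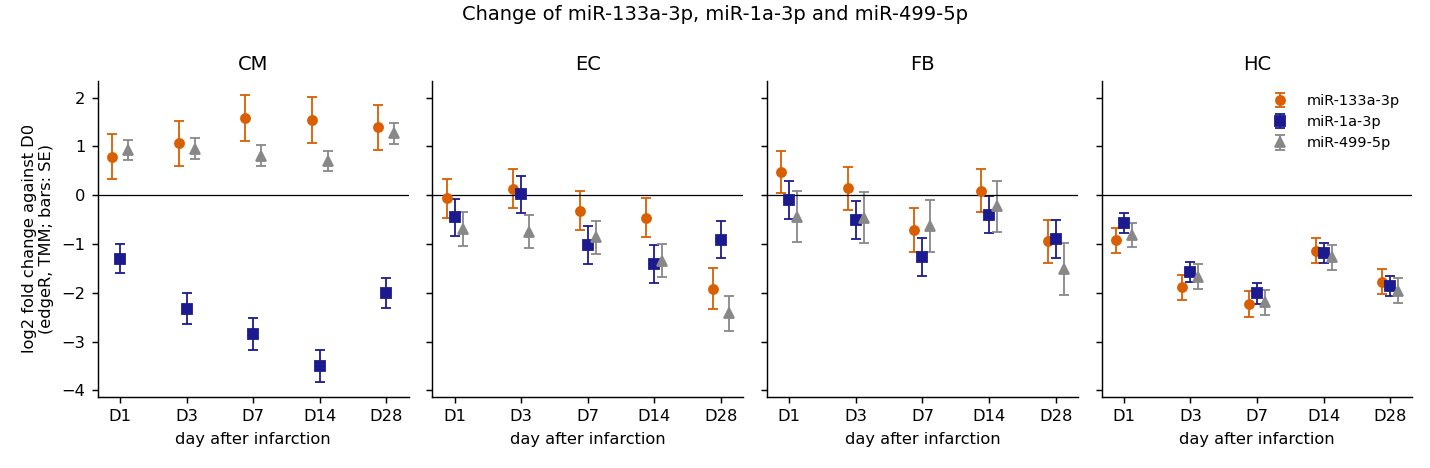
log2 fold change against D0 with its SE (edgeR, TMM scale) of miR-133a-3p, miR-1a-3p and miR-499-5p by day and cell type. In CMs miR-133a-3p lies above 0 and miR-1a-3p below 0 at every day, whereas in HCs all 3 lie below 0 at every day, reaching -2.23 for miR-133a-3p at D7.

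In HCs miR-133a-3p and miR-133b-3p fell at every day after infarction. miR-133a-3p stood at 795, 713, 930 and 575 CPM at D0 (753 ± 149, SD, n = 4), at 326, 255, 195 and 313 CPM at D3 and at 240, 171, 238 and 142 CPM at D7 (198 ± 48.8). It was at 307, 377, 495 and 423 CPM at D14 and at 293, 368, 144 and 200 CPM at D28. Every library from D3 on was below every D0 library. The log2 fold changes were -0.93 ± 0.25, -1.89 ± 0.26, -2.23 ± 0.26, -1.14 ± 0.25 and -1.77 ± 0.26 at D1, D3, D7, D14 and D28 (edgeR, adjusted p between 1.4e-07 and 0.0034). miR-133b-3p gave -0.99, -1.94, -2.30, -1.18 and -1.80, all past the threshold. For miR-133a-5p, 3 days passed, with -1.54 ± 0.44 at D3, -2.18 ± 0.44 at D7 and -1.61 ± 0.42 at D28, and the values of -0.89 at D1 and -0.79 at D14 did not. Thus 13 of 15 tests passed, all lower. Scaled by library size alone, 10 of 15 passed: the D1 values of miR-133a-3p (-0.56, adjusted p = 0.0944) and miR-133b-3p (-0.62, adjusted p = 0.0638) and the D3 value of miR-133a-5p (adjusted p = 0.0562) did not. The share of the 608 miRNAs tested in HCs that was called lower was 28.9%, 28.1%, 19.6%, 12.8% and 11.3% on these days.

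On the TMM scale miR-133a-3p and miR-133b-3p did not overlap with D0 at any day. The share of all miRNAs lower without overlap was 20.6%, 24.3%, 16.9%, 13.3% and 13.2% on the 5 days in turn. Several marker lists moved with them, but not all. Fibroblast markers in HCs stood at 4229 to 4533 CPM at D0 and 2362 to 3431 CPM at D3. They were at 4375 to 6177 CPM at D7 and 11880 to 18739 CPM at D28, so they ended higher. The summed cardiomyocyte markers in HCs were at 85203 to 131412 CPM at D0 and at 25834 to 45178 CPM at D7. Endothelial markers went from 54905 to 91837 CPM to 16579 to 24855 CPM, mural markers from 21694 to 32350 CPM to 5660 to 8954 CPM and erythroid markers from 1158 to 2844 CPM to 305 to 609 CPM, while hematopoietic markers went up from 6819 to 10015 CPM to 12370 to 23649 CPM. Over all HC libraries, miR-486a-5p held a mean of 622 CPM of the mean erythroid sum of 739 CPM. Its mean was higher in CM libraries, at 2210 CPM, where miR-451a of the same list was at 11.6 CPM against 102 CPM in HCs. Whether the fall of the erythroid sum reflects erythroid cells was not tested. The part of these marker shifts in the change of the members was not tested either. miR-1a-3p fell by 0.57, 1.58, 2.01, 1.18 and 1.86 and miR-499-5p by 0.82, 1.67, 2.20, 1.27 and 1.96 on the log2 scale over the same days, all past the threshold, though by library size alone neither passed at D1 (-0.26, adjusted p = 0.316, and -0.44, adjusted p = 0.164). Fewer carried-over cells and less of these miRNAs per cell cannot be told apart in bulk libraries.

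In ECs the family was lower than at D0 only at D28. The D0 libraries held 1161, 1508, 698 and 1204 CPM of miR-133a-3p (1143 ± 334), and the means at D1, D3, D7 and D14 were 1111, 1255, 1159 and 946 CPM. At D28 the libraries held 424, 550, 80.2 and 91.7 CPM (287 ± 237), from 223, 1007, 51 and 358 counts. All 4 D28 libraries were below every D0 library, and they fell into a higher and a lower pair. The log2 fold change at D28 was -1.92 ± 0.42 for miR-133a-3p and -1.92 ± 0.42 for miR-133b-3p (adjusted p = 0.00058 for both), and no other day passed. miR-133a-5p had no count in any D28 library of ECs and 89 counts in those of D0, 2.86 CPM over the group. Against the limit that a count of 0 allows, 3 counts over the group or 0.435 CPM, it was at least 6.58-fold lower at D28, and it was called lower too (edgeR, adjusted p = 0.00285). So 3 of 15 tests passed in ECs. At the 4 earlier days 0.0%, 17.6%, 22.6% and 14.5% of all miRNAs were called, with 0 of 421 at D1 and none of the members. At D28, 20.2% were called lower and 14.7% were lower without overlap. Beside them, miR-499-5p fell by 2.42 and miR-208a-3p by 2.10 on the log2 scale at D28, and summed cardiomyocyte markers were 75259 to 132782 CPM at D0 and 20578 to 80152 CPM at D28, while endothelial markers were at 174749 to 215247 CPM and 103768 to 224231 CPM. The cardiomyocyte markers were also low at D14, at 20095 to 52930 CPM, where no member passed. miR-1a-3p fell by 0.92 at D28, just past the threshold (edgeR, adjusted p = 0.0498). Without D28 replicate 1, the shallow library, the 3 calls held.

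FBs held little of the family. miR-133a-3p was at 14.9, 12.6, 8.35 and 19.4 CPM at D0, at 22.3, 21.1, 23.8 and 19.6 CPM at D1 and at 2.78, 4.76, 4.60 and 14.8 CPM at D28. The log2 fold changes of 0.47, 0.14, -0.72, 0.09 and -0.95 at D1, D3, D7, D14 and D28 all failed the test. None of the 10 tests of the 2 members that were abundant enough passed in edgeR or in DESeq2, although both members had an unadjusted p under 0.05 at D28 in edgeR, whereas of 563 miRNAs 7.99%, 43.0%, 45.6%, 24.7% and 6.75% were called on the 5 days. Taken over the 6 days both differed (adjusted p = 0.0418 and 0.0362, among 68.2% of all miRNAs), but without any one library of D1, or any one of D7 replicates 1 to 3, neither did. miR-133a-5p had 29 counts in all FB libraries together and was at 0 in 14 of 24.

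Set side by side as means over the 6 days, the order of miR-133a-3p levels was CMs (3647 CPM), ECs (983 CPM), HCs (394 CPM) and FBs (14.3 CPM). In a fit of all 96 libraries with TMM scaling, miR-133a-3p was higher in CMs than in ECs by 2.97 ± 0.19, than in HCs by 5.08 ± 0.21 and than in FBs by 9.20 ± 0.25 on the log2 scale. miR-133a-5p was higher by 7.49, 6.26 and 11.7, and miR-133b-3p by 2.93, 5.10 and 9.17. All 9 tests passed, where 32.2%, 35.8% and 34.8% of 712 miRNAs were called higher in CMs than in ECs, HCs and FBs. miR-1a-3p differed by 4.30, 5.45 and 9.37 and miR-499-5p by 6.37, 6.03 and 10.2. Scaled by library size, the miR-133a-3p differences were 1.58, 2.91 and 7.64.

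At D0 the order depended on the scale. In CPM, miR-133a-3p of ECs stood at 292% and that of HCs at 192% of the CM mean, while FBs stood at 3.53%. Log2 CPM by library size was lower in CMs than in ECs by -1.84 and than in HCs by -1.28, with overlapping groups (exact permutation test of 4 against 4, two-sided, p = 0.0571 and 0.114, where 0.0286 is the smallest p possible). In the TMM fit of all 96 libraries, the contrast at D0 had CMs higher than ECs by 1.10 (edgeR, adjusted p = 0.024) and than HCs by 2.44. Its scaling and spread thus draw on every day and cell type. With the reads of miR-1a-3p and miR-1b-5p taken out of the library size, the differences were -0.060 (exact permutation test, p = 1.0) from ECs and 0.50 from HCs. After infarction CMs led on every scale from D7: by D7 ECs stood at 20.2%, HCs at 3.44% and FBs at 0.166% of the CM level in CPM.

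The change in CMs was compared with the mean change of the other cell types in 1 model. For miR-133a-3p the CM change was larger by 1.35 ± 0.50 at D1 (edgeR, adjusted p = 0.040), and on the later days by 2.05 ± 0.50, 3.02 ± 0.51, 2.34 ± 0.50 and 3.17 ± 0.51. For miR-133b-3p the differences were 1.44, 2.15, 3.13, 2.41 and 3.27. All 10 passed, where the share of all miRNAs called in that direction was 15.9%, 27.9%, 28.2%, 26.5% and 23.9%. The median difference over all miRNAs was 0.55, 0.81, 0.70, 0.49 and 0.55, so each value should be read against that shift. This test could not be made for miR-133a-5p at any day. It had no count in FBs at D0, which enters the comparison of every day, and none in ECs at D28.

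The ratio of miR-133a-3p to miR-1a-3p within a library needs no scaling, but its absolute size understates miR-133a, most of whose reads were counted on hairpins, as given further on. In CMs at D0 there were 782, 2397, 3231 and 3381 counts of miR-1a-3p for each count of miR-133a-3p. At D1 there were 1301, 1115, 153 and 175, at D3 350, 282, 78.2 and 127, and at D7 107, 52.4, 85.6 and 69.3. The ratio was closest together at D14, with 51.0, 57.3, 48.8 and 50.5, and opened again at D28, with 437, 128, 98.6 and 117. From D3 on, all libraries had fewer counts of miR-1a-3p per count of miR-133a-3p than any D0 library (exact permutation test, two-sided, p = 0.0286, the smallest possible; adjusted p = 0.0571 over 20 tests of miR-133a-3p in the 4 cell types). Adjusted over the 15 tests of the 3 members in CMs, 12 passed in this exact test. These tests are not independent, since miR-133b-3p could not be read apart from miR-133a-3p. The share of all miRNAs without overlap in this ratio was not counted.

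**Figure D3:**
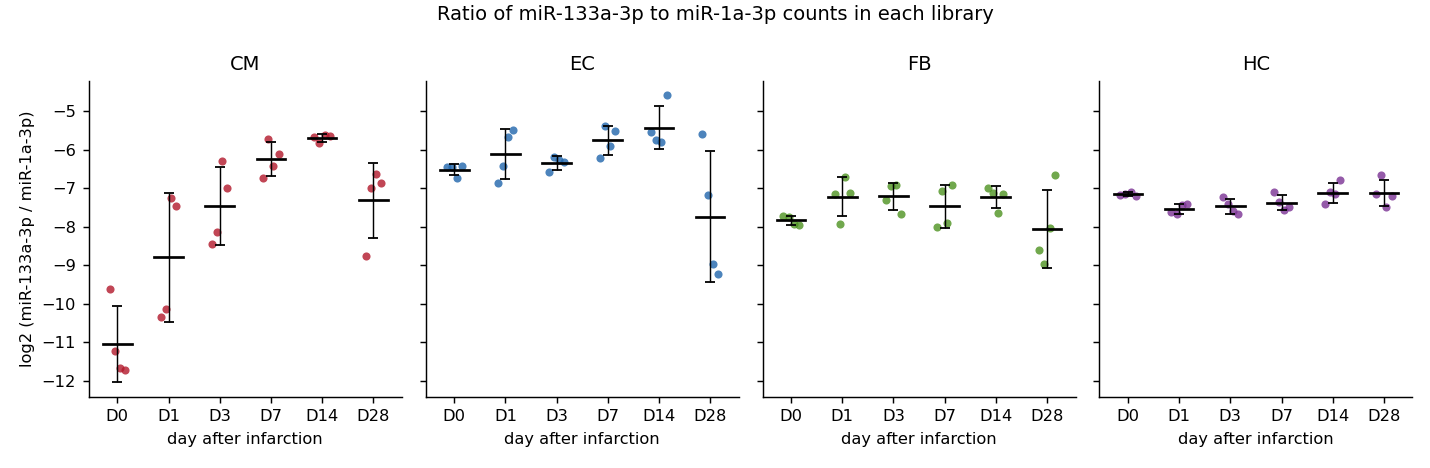
log2 ratio of miR-133a-3p to miR-1a-3p counts within a library by day in the 4 cell types; points are libraries, horizontal lines are means and bars are SDs. CMs go from -11.1 ± 0.99 at D0 to -5.69 ± 0.10 at D14, HCs stay between -7.54 and -7.12 on average, and ECs drop from -5.43 at D14 to -7.74 at D28.

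On the log2 scale the ratio in CMs was up by 2.26 ± 0.67, 3.59 ± 0.67, 4.81 ± 0.67, 5.36 ± 0.67 and 3.74 ± 0.67 at D1, D3, D7, D14 and D28 (limma over 483 miRNAs, adjusted p = 0.0061 at D1 and below that afterwards). All 15 tests of the 3 members passed. Most miRNAs went up against miR-1a-3p: 64.0%, 83.2%, 85.1%, 90.1% and 75.6% were called higher, with medians of 1.52, 2.74, 3.31, 3.88 and 2.30. Each change of miR-133a-3p lay above the median of its day. miR-206-3p, which lies beside miR-133b, held its ratio to miR-1a-3p in CMs, with changes of -0.15, -0.07, 0.10, 0.01 and -0.36 and an adjusted p of at least 0.17. Its counts were 0.0414% to 0.0822% of those of miR-1a-3p in all 24 CM libraries. miR-206 and miR-1 are near-identical in sequence, so reads of one may be counted as the other.

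In HCs the ratio moved little while both miRNAs fell. There were 140 to 147 counts of miR-1a-3p per count of miR-133a-3p at D0 and 101 to 203 over all 24 HC libraries. The changes of the log2 ratio were -0.38, -0.32, -0.22, 0.03 and 0.03, each with an SE of 0.21, and 0 of 15 tests of the members passed in limma or after adjustment of the exact test, where 26.0%, 47.4%, 63.9%, 34.6% and 56.2% of 607 miRNAs were called and the medians went up to 1.76. At D1 and D3 the ratio of miR-133a-3p was lower than in any D0 library (exact permutation test, p = 0.0286, adjusted p = 0.0571 for both), and at the later days it overlapped. ECs and FBs had no call either in limma (0 of 15 and 0 of 10), but without overlap the ratio of miR-133a-3p was higher than at D0 at D7 and D14 in ECs and at D3 and D14 in FBs (exact permutation test, p = 0.0286, adjusted p = 0.0571 for each). In ECs the log2 ratio of miR-133a-3p changed by 0.41, 0.17, 0.76, 1.09 and -1.22, where 0.0%, 4.05%, 22.6%, 62.4% and 36.2% of miRNAs were called. The medians of all miRNAs on these days were 0.54, 0.12, 1.07, 1.63 and 1.03, so miR-133a-3p lay below the median at D7 and D14. Without D28 replicate 1 of ECs, 5 of 15 passed: miR-133a-3p and miR-133b-3p were higher at D14 (1.09 and 1.08), and all 3 members were lower at D28 (-1.94 for miR-133a-3p). The D14 values lay below the D14 median of 1.63 that all miRNAs had with every EC library kept. In FBs the changes were 0.61, 0.62, 0.36, 0.61 and -0.23, where 1.6%, 20.1%, 45.4%, 13.9% and 7.3% were called. The medians there were 0.09, 0.53, 1.20, 0.67 and 0.96, so miR-133a-3p lay above the median at D3 and below it at D14. The share of all miRNAs without overlap in this ratio was not counted. Beside these counts of 0 from limma, the unadjusted p was under 0.05 for the 3 members in ECs at D28, for miR-133b-3p in HCs at D1 and for none in FBs.

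Between cell types the order of the ratio turned over. At D0 its log2 mean was -11.1 ± 0.99 in CMs, below -6.52 ± 0.15 in ECs, -7.84 ± 0.12 in FBs and -7.16 ± 0.05 in HCs (SD, n = 4), with no overlap (exact permutation test, p = 0.0286 for each, adjusted p = 0.0643 over the 18 tests of all days and 0.0367 over the 9 tests of the 3 members at D0, of which 7 passed). The tests of miR-133a-3p and miR-133b-3p among these 9 are not independent. At D7 and D14 the CM means of -6.25 and -5.69 were above those of FBs by 1.23 and 1.54. They were above those of HCs by 1.13 and 1.43. All of these were without overlap (exact permutation test, adjusted p = 0.0643 for each), whereas CMs overlapped with ECs. At D3 and D28 CMs overlapped with all 3. As means over the days, CMs differed from ECs by -1.45, from HCs by -0.46 and from FBs by -0.26 (limma, adjusted p = 8.3e-10, 0.028 and 0.22), where 99.4%, 98.7% and 99.3% of all miRNAs were called and the medians were -4.70, -5.46 and -9.30. The 3 miR-133a-3p differences were thus much nearer to 0 than these medians.

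**Figure D4:**
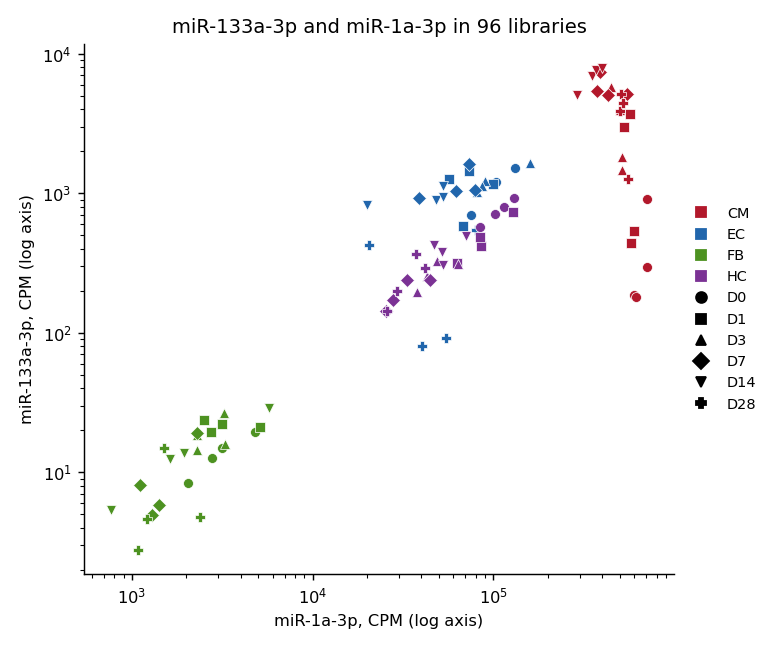
CPM of miR-133a-3p against CPM of miR-1a-3p in all 96 libraries (log axes), coloured by cell type and with a symbol for the day. HC and FB libraries lie along a band of about 101 to 503 counts of miR-1a-3p per count of miR-133a-3p, whereas CM libraries run from 48.8 such counts at D14 to 3381 at D0.

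Among libraries of the same cell type and day, the 2 miRNAs varied together in HCs. After the mean of each day was taken out, log2 CPM on the TMM scale of miR-133a-3p and miR-1a-3p had r = 0.818 and rho = 0.803 over 24 HC libraries (permutation within days, adjusted p = 0.000935 and 0.00121 over 11 relations), and r = 0.815 without the 2 libraries farthest in miR-1a-3p. For miR-133b-3p r was 0.827 and for miR-133a-5p 0.495 (permutation, adjusted p = 0.025). In FBs r was 0.656 and rho 0.541 (permutation, adjusted p = 0.021 and 0.055). Without its 2 farthest libraries r was 0.461 (permutation p = 0.080), so the relation in FBs rests on them. Neither ECs (r = 0.317) nor CMs (r = -0.442, permutation, adjusted p = 0.13) passed. Without the 2 farthest libraries r was 0.665 in ECs (permutation p = 0.017) and -0.648 in CMs (permutation p = 0.026), both unadjusted. The r of CMs was -0.10 when libraries were scaled by their size alone, and that of ECs was 0.618 without the shallow D28 library.

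The share of the minor arm rose in CMs. The log2 ratio of miR-133a-5p to miR-133a-3p counts was -6.01 ± 0.16 at D0, then -5.70 ± 0.29, -5.45 ± 0.05, -5.30 ± 0.19, -5.46 ± 0.16 and finally -4.92 ± 0.14 at D28 (SD, n = 4). All D28 libraries, at -5.03 to -4.74, were above all D0 libraries, at -6.19 to -5.83. Changes of 0.57 ± 0.20, 0.71 ± 0.20, 0.56 ± 0.20 and 1.09 ± 0.20 at D3, D7, D14 and D28 passed, and that of 0.32 ± 0.20 at D1 did not (limma, adjusted p = 0.019, 0.0037, 0.019, 0.00012 and 0.20). Over the 6 days the adjusted p was 0.0016. Such differences were common, with 70.7% of 99 hairpins called over the 6 days and 24.2%, 35.4%, 34.3%, 38.4% and 33.3% called higher on the 5 days. In HCs, where HC D0 replicate 3 held 1 count of miR-133a-5p among 18286, and in ECs the arm ratio did not pass (adjusted p = 0.80 and 0.83 over the 6 days, where 15.8% and 40.4% of hairpins were called).

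**Figure D5:**
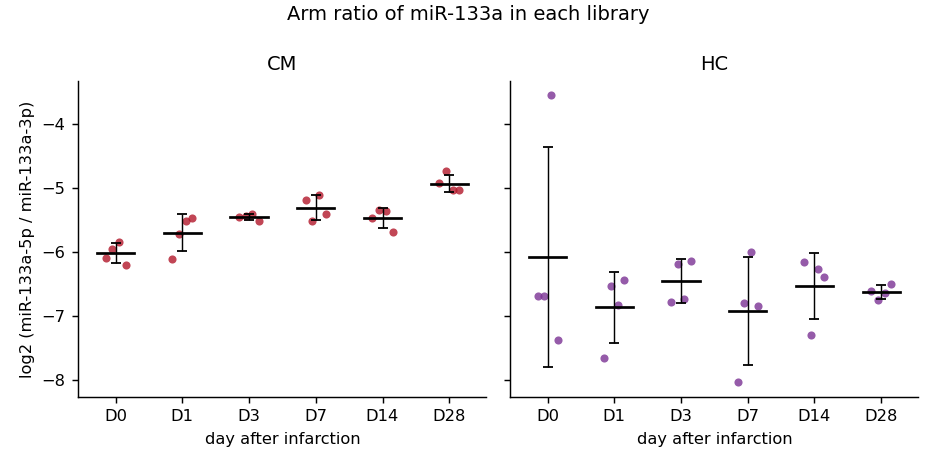
log2 ratio of miR-133a-5p to miR-133a-3p counts by day in CMs and HCs; points are libraries, horizontal lines are means and bars are SDs. The CM mean goes from -6.01 at D0 to -4.92 at D28, and the HC values scatter more widely, with 1 D0 library at -3.54.

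miR-133b-3p could not be read apart from miR-133a-3p. Its count was 87.6% to 97.7% of that of miR-133a-3p in the CM libraries, and 87.6% to 100% in all 96. The difference of their log2 values against D0 passed in 0 of 20 exact permutation tests, of which 7 had an unadjusted p of 0.0286, and it was 0.05 to 0.08 in CMs. The other arm of the same hairpin, miR-133b-5p, had 2 counts in all 96 libraries together. Reads that matched no mature sequence were matched to hairpins in a second step, and there mir-133b held 3.14% to 14.6% of the count of mir-133a-2. miR-133a-3p and miR-133b-3p are known to differ only in their last base, and the sources used here do not say how reads with several matches were treated. In the hairpin step a read could be counted on more than 1 hairpin. For CM D0 replicate 1, 4292501 reads entered that step and 2364094 stayed unmatched, yet the hairpins held 4345217 counts. Whether mature counts were made in the same way cannot be read from these totals.

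The second step held more miR-133a reads than the first. There were 12.5 to 26.3 hairpin counts on mir-133a-2 for each mature count of miR-133a-3p in CMs, 4.48 to 13.1 in ECs, 6.81 to 18.9 in FBs and 11.2 to 21.4 in HCs. For miR-1a the same figure, mir-1a-1 per miR-1a-3p, was 0.0577 to 0.122 in CMs. The mature counts thus hold a small part of the reads of the family, and the mature ratio understates miR-133a relative to miR-1a. The hairpin counts of mir-133a-2 in CMs changed against D0 by 1.38, 1.61, 2.39, 2.21 and 2.04 (edgeR, adjusted p = 0.0626, 0.0165, 0.000852, 0.00164 and 0.00435), where 17.8%, 31.1%, 38.7%, 39.8% and 27.1% of 354 hairpins were called higher. With both steps added, the log2 ratio of miR-133a to miR-1a in CMs was -7.25 ± 1.10 at D0, -1.81 ± 0.41 at D7, -1.28 ± 0.11 at D14 and -2.80 ± 0.99 at D28. It lay above that of ECs, FBs and HCs at D7 and D14 without overlap, by 1.00, 2.32 and 1.80 at D7. Each had p = 0.0286 in the exact permutation test and did not pass after adjustment (adjusted p = 0.0571 over 18 tests). mir-133a-1 had 96.6% to 99.96% of the count of mir-133a-2, so the 2 loci were not told apart.

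The other muscle miRNAs were counted from a list of 15. Of 13 tested in CMs, the numbers higher were 1, 2, 6, 8 and 5 on the 5 days, and 5 were lower on each, beside 11.4%, 23.3%, 30.2%, 29.1% and 24.8% of all miRNAs called lower and the shares called higher given above. The median log2 change of the list was 0.53, 0.29, 0.81, 1.26 and 0.88, where that of all miRNAs was 0.20, 0.44, 0.35, 0.41 and 0.25, so the list lay below all miRNAs at D3 and above them on the other days. In HCs 6, 8, 9, 8 and 9 of 11 were lower and the median reached -2.01 at D7. In ECs 0, 0, 2, 5 and 5 of 9 were lower on the 5 days, and 2 were higher at D28 alone. The list median was -1.12 at D14 and -0.92 at D28. Of all miRNAs in ECs, 20.2% were called lower and 26.8% higher at D28. At D7 and D14, 22.6% and 14.5% were called in either direction. miR-208b-3p, from the intron of the beta myosin heavy chain gene, rose in CMs by 3.18 at D7 and 4.31 at D14. miR-1a-1-5p, the minor arm of the hairpin beside Mir133a-2, rose in CMs by 1.26 at D14 only (adjusted p = 0.0060), a direction opposite to that of miR-1a-3p. In FBs miR-206-3p rose by 1.96 at D3, 2.00 at D7 and 1.40 at D14, where miR-133b-3p changed by 0.18, -0.67 and 0.12 and did not pass.

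Measured by Spearman's rho over the 24 group means, the pattern of miR-133a-3p was most like that of miR-133b-3p (0.999), miR-378a-5p (0.980) and miR-1b-5p (0.954) among 298 miRNAs, and miR-1a-3p came sixth. Over the 24 CM libraries the nearest were miR-133b-3p (0.997), miR-872-3p (0.951) and miR-30b-5p (0.938), and miR-1a-3p stood at rank 152 of 210 with -0.638. Over the 24 EC libraries they were miR-133b-3p (0.997), miR-378a-5p (0.793) and miR-208a-3p (0.791). These correlations share library depth and day and are given as a description.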

How the data were processed

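Small RNA of each pool was sequenced after a NEBNext small RNA kit and gel selection. Per the methods, the authors trimmed the reads with Trim Galore in nf-core smrnaseq, removed reads under 18 nt and matched the rest to mature miRNAs, then hairpins, of miRBase 21; the submitters' processing notes name Bowtie2, SAMtools and mm10. Aligner settings and the treatment of reads with several matches are not given in the sources used here. Hairpin totals above the number of newly matched reads show that a read could be counted on several hairpins. The deposited tables hold raw read counts per miRNA, which were used as counts. Unmatched reads (25.6% to 83.0% of mature counts and unmatched reads together) were kept out of library sizes. Counts carry no molecular identifiers, so limits from them cover counting error only.

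Groups came from the labels. Members and lists were chosen with earlier results of these data known. Counts were tested with edgeR 4.0.16 (quasi-likelihood, TMM, filterByExpr) in R 4.3.3 within each cell type and over all 96 libraries, and log2 ratios (pseudocount 0.5) with limma 3.58.1, all with Benjamini-Hochberg adjustment over all miRNAs tested and a threshold of 0.05. Single values were compared by two-sided exact permutation tests, and correlations by 100000 permutations within days (Python 3.11.15, scipy 1.17.1). Named miRNAs were the members, those of their genomic clusters (miR-1a, miR-1b, miR-206), the 3 with the highest rho in each of 3 sets, and marker lists; miR-499-5p, miR-208a-3p and miR-208b-3p are markers named singly after their values were seen. DESeq2 1.42.0, other scalings, filters and pseudocounts, a replicate block and leaving out libraries were alternatives. The labels number pools 1 to 4; the methods say that cell types of a day share animals, but no source used here ties a number to animals. The 4 pools of a group are described as both biological and technical replicates, so p-values may measure technical spread. No replicate pair of 144 held identical counts. miR-133a-5p was too low in FBs to be tested there. Scripts were tested on simulated data. Sequences and positions are from RefSeq and the GRCm38 annotation; miR-133a and miR-1a-3p are named only.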

Additional observations from a re-analysis of the deposited data

Results flagged for a closer look

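Of 89 groups of 4 libraries examined for a library far from the rest, 5 had one, and chance flags about 1 in 20 groups. The gap to the nearest library, as a share of the group's range, was 0.832 for miR-133a-5p in CMs at D28, where 1 library stood at 5.97 log2 CPM and the rest at 6.80 to 6.97. It was 0.917 for the log2 ratio of miR-133a-3p to miR-1a-3p in ECs at D0 (-6.74 against -6.46 to -6.43). In ECs at D1 the same library was low for miR-133a-3p (0.901, 9.42 against 10.30 to 10.40 log2 CPM) and miR-133b-3p (0.890, 9.36 against 10.23 to 10.34). In FBs at D1 miR-133b-3p had 1 high library (0.901, 4.46 against 4.22 to 4.25).

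The change from D0 in CMs differed from that of ECs, FBs and HCs on average at all 5 days. For miR-133a-3p the difference was 1.35, 2.05, 3.02, 2.34 and 3.17 on the log2 scale at D1, D3, D7, D14 and D28 (edgeR, adjusted p = 0.0397, 0.000527, 5.3e-07, 5.9e-05 and 2.4e-07), and for miR-133b-3p it was 1.44, 2.15, 3.13, 2.41 and 3.27.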

How the results depend on the processing

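Among alternatives, 6356 values of single members kept their direction and side of the threshold, 108 fell short of it, 59 passed it and 9 reversed. The reversals were in the D0 comparison of CMs with other cell types by library size (miR-133a-3p -1.84 against ECs and -1.28 against HCs, miR-133b-3p -1.94 and -1.37, miR-133a-5p -1.22 against HCs) and with miR-1 reads left out (-0.060 and -0.16 against ECs), where 0 of 9 tests passed in either case, and with a pseudocount of 5 (-0.72 for the ratio of miR-133a-5p between CMs and FBs, 2.34 for the arm ratio of ECs at D28, with 0.0036 over the days). Without a filter 2 of 10 tests passed in FBs. Without the shallowest libraries of the 3 groups named above, 5 of 15 ratio tests passed in ECs. With hairpin counts 3 of 15 ratio tests passed in ECs, 3 in HCs, and 1 of 9 between cell types. By Spearman's rho 3 of 11 correlations passed. The cause was not tested for any of these.

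Leaving out 1 library gave 9 to 15 calls of 15 against D0 for CMs, 3 to 3 for ECs, 0 to 2 of 10 for FBs (2 without FB replicate 4 of D7 or of D28) and 13 to 14 in HCs. Over the 6 days it gave 1 to 3 calls in CMs, 2 to 3 in ECs, 0 to 2 in FBs (1 without any of D28 replicates 1 to 3) and 3 in HCs. The difference between CMs and other cell types gave 8 to 10 calls, levels between cell types 9, and the ratio to miR-1a-3p 15 in CMs, 0 to 5 in ECs (5 without D28 replicate 1, 1 without D0 replicate 2 or D28 replicate 3), 0 in FBs, 0 to 1 in HCs (1 without D0 replicate 4) and 5 to 7 between cell types. The arm ratio had adjusted p of 0.0013 to 0.0070 in CMs, 0.53 to 0.95 in ECs and 0.50 to 0.88 in HCs.

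Same-numbered libraries of different days did not deviate together (mean correlation 0.026 in CMs), and same-numbered libraries of different cell types at a day had a mean correlation of 0.073, with 70 of 144 over 0.1. With the replicate block, 10 of 15 tests against D0 passed for CMs, 3 for ECs, 0 for FBs and 13 for HCs, as did 2 of 3 members over the days in CMs and ECs, 8 of 10 differences between CMs and the other cell types, and, with day and number together as the block, 9 of 9 levels and 6 of 9 ratios between cell types, as without it. Depth limits miR-133a-5p in ECs and FBs and every value of HC D0 replicate 3.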
